A study of Mus musculus with 4 samples.

Results

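The G1 cyclins and their kinases were followed as 9 genes: the D-type cyclins Ccnd1, Ccnd2 and Ccnd3, their catalytic partners Cdk4 and Cdk6, the E-type cyclins Ccne1 and Ccne2, their partner Cdk2, and the phosphatase Cdc25a. Members were the non-control array probes that carry one of these gene names, which gave 13 of the 39429 probes and 9 of the 31896 named genes. Every probe is reported, and the brightest over the 4 arrays stands for its gene. RNA came from breast cancer cells grown out of MMTV-Neu mouse tumours. The viral MMTV promoter, active mainly in mammary epithelium, drives the oncogene Neu, also called Her2. Of the 4 samples, 2 were labelled Pak1-/- and 2 Pak1+/+ for the p21-activated kinase Pak1. Cells of both genotypes carried the Neu transgene, were kept in low calcium medium with 5% horse serum, had serum withdrawn for 3 h and received EGF for 15 min before harvest, and the age of the animals was not given. The series design takes each group from 2 tumours, and the study's methods call the cells lines. Nothing further describes how separate the cultures were, so p-values measure only the spread between these samples. In bulk RNA of this kind, fewer cells of a type and less RNA per cell cannot be told apart.

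D-type cyclins accumulate in response to growth factors and, bound to Cdk4 or Cdk6, begin to phosphorylate the retinoblastoma protein, which releases E2F transcription factors. Cyclin E with Cdk2 continues that phosphorylation and starts DNA replication, and Cdc25a removes the inhibitory phosphates that hold Cdk2 back. In the mouse mammary gland, cyclin D1 is known to be needed for tumours driven by Neu.

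The labels were checked first. Pak1 gave a normalized log2 intensity of 12.21 and 12.25 on the arrays labelled Pak1-/- and 12.04 on both arrays labelled Pak1+/+, so that its transcript signal was not lower in the arrays labelled Pak1-/- (log2 difference 0.19, limma adjusted p = 0.070, and 0.27 with adjusted p = 0.027 after cyclic loess). Whether the probe lies outside the deleted part of the gene was not tested. Erbb2, the mouse gene of the oncogene, fell by 0.31 on the log2 scale (limma adjusted p = 0.020), and did not pass without Pak1-/- replicate 1 (0.066), Pak1+/+ replicate 1 (0.11) or Pak1+/+ replicate 2 (0.079). Whether the Erbb2 probe also reads the Neu transgene was not tested. Between 62.2% and 70.4% of probes were well above background on each array. All arrays lay on 1 slide with the arrays labelled Pak1-/- in positions 1 and 2, so position and genotype cannot be told apart. Marker counts stand beside 28.2% of all genes tested that fell and 22.8% that rose. Of 9 epithelial markers, the keratin genes Krt8 and Krt18 were among the brightest (log2 intensity 18.1 to 18.9), Epcam lay between 15.0 and 15.3, and 0 fell and 5 rose. The basal keratin gene Krt14 read 15.93 and 15.89 against 13.05 and 13.10 and rose by 2.83 (limma adjusted p = 7.7e-05), the basal keratin gene Krt5 rose by 0.50 and the cadherin gene Cdh1 by 1.19. Epcam (-0.23) and the dim Krt19 (-0.64) read lower and did not pass, nor did Cldn4 (0.02) and Cldn7 (-0.005). The epithelial markers had a summed linear level of 1105150 and 1100850 in the arrays labelled Pak1-/- against 832840 and 830822. Most of this sum was Krt8 and Krt18. Of 8 fibroblast markers 3 were tested and 1 rose, the collagen gene Col1a1 (by 1.12), while Col3a1, Pdgfrb, Dcn and Lum stayed at background on all 4 arrays (summed level 1375 to 1564 against 1213 to 1251). Of 8 leukocyte markers 6 were tested, 2 fell and 0 rose. The summed leukocyte level was 52357 to 75023 against 43780 to 48305. Most of it was the integrin gene Itgam, which read 16.07 and 15.51 against 15.39 and 15.20 and did not pass (log2 difference 0.49, limma adjusted p = 0.11). The pan-leukocyte gene Ptprc was dim, at 7.14 to 7.60, and fell by 0.45, and the macrophage gene Adgre1, at 7.47 to 8.60, fell by 1.05. Cd3e, at 11.34 to 11.70 (log2 difference 0.25), Csf1r, at 10.57 to 11.00 (0.12), and the dimmer Cd68 (-0.20) did not pass. Of 4 endothelial markers 3 were tested and 0 passed. Most of their summed level (9921 to 10302 against 8989 to 10803) was the receptor gene Kdr, at 12.99 to 13.27 over the 4 arrays, while Tek stayed at background. The part of these markers in the members' differences was not tested.

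Of the 9 genes, 7 were well above background on all 4 arrays and were tested, and 4 of these were lower in the arrays labelled Pak1-/-: Ccnd1, Cdk6, Cdk2 and Cdc25a. None was higher, and Ccnd3, Cdk4 and Ccne1 did not pass the test. Over all 22006 genes tested in the same way, 28.2% were lower and 22.8% were higher. For 5 of the 7 members the values of both groups were fully separated, against 77.5% of all genes, and 1 member was lower by at least 2-fold, against 5.61% of all genes. The median log2 difference of the 7 members was -0.58, beside -0.05 for all genes tested. Counted by probe, 11 of 13 were tested, 5 were lower, 0 were higher and 6 did not pass. Ccnd2 and Ccne2 stayed at background on every array. No member spot was saturated or an outlier, and each probe had 1 spot per array.

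**Figure D1:**
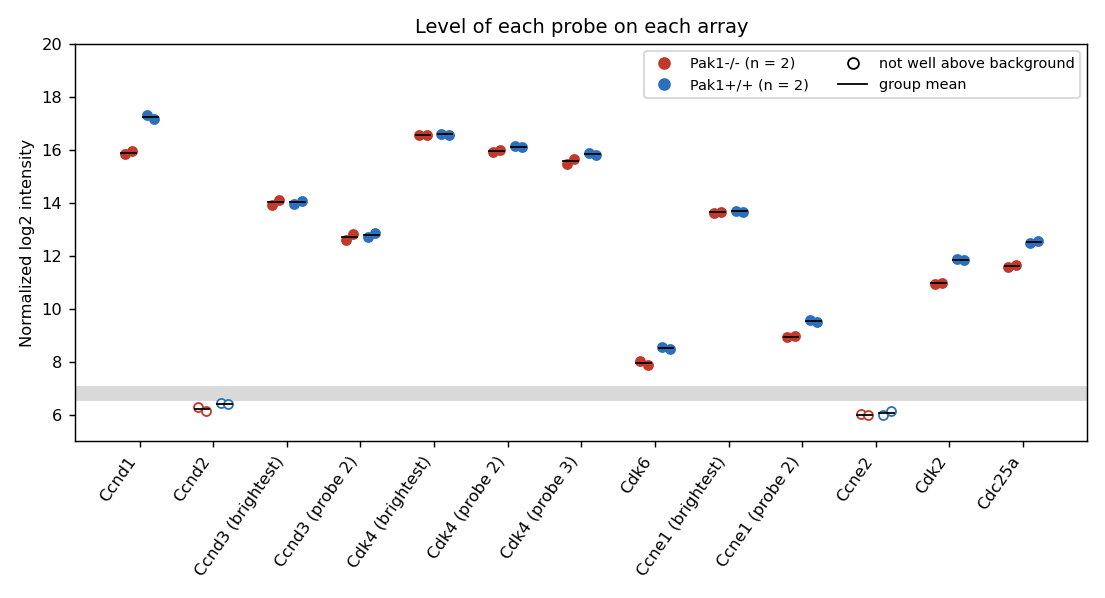
Normalized log2 intensity of each of the 13 probes (x axis) on each array, red for the arrays labelled Pak1-/- and blue for those labelled Pak1+/+, with a black line at each group mean. Open circles are probes not well above background, the grey band spans the lowest well-above-background signal of the 4 arrays, and levels of different probes are not comparable. The gap between the groups is widest for Ccnd1, while the groups overlap for both Ccnd3 probes and for the brightest Cdk4 probe.

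Before the values, 3 promoters are shown: those of Cdc25a and Cdk2, which were lower and hold an E2F word, and that of Cdk4, which did not pass and holds several E-boxes. Each window runs from 250 bases before to 50 bases after the annotated start, 5′ to 3′ on the gene's strand, from RefSeq on GRCm38.p6. Cdc25a is at chr9:109875329-109875628 (plus strand), Cdk2 at chr10:128705002-128705301 (minus strand) and Cdk4 at chr10:127063285-127063584 (plus strand). Capitals mark the E2F-type words TTTCCCGC, TTTCGCGC, TTTGCCGC and TTTGGCGC or their reverse complements, and the E-box CACGTG, the same on both strands and known for MYC family binding. Windows of 6 members were used, without Ccnd1, Ccnd2 and Ccne2, and both motifs were chosen with results of these data known.
Cdc25a: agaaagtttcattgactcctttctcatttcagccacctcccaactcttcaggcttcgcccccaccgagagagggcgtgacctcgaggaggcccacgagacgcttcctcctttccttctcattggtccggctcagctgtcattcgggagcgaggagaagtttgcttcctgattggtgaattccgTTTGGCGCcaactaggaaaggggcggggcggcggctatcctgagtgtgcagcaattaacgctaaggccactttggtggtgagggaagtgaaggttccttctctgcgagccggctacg
Cdk2: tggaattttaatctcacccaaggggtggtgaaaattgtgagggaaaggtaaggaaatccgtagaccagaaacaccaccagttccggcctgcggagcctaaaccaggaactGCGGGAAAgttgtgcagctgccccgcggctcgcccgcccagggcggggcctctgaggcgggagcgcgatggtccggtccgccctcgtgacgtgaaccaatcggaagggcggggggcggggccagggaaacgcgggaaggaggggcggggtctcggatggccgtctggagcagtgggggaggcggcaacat
Cdk4: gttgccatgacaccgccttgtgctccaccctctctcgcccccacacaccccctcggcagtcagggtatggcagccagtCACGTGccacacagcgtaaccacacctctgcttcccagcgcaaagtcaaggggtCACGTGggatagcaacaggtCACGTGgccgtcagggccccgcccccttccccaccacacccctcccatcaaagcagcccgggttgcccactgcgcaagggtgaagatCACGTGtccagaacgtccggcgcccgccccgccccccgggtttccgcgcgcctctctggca

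The Cdc25a window holds 1 E2F word, TTTGGCGC, whose first base is at -67 from the start. The Cdk2 window holds 1, GCGGGAAA, at -140 and so on the opposite strand. Of all 32851 promoter windows of this length, 2.26% hold such a word. Cdk4 holds 4 E-boxes, at -172, -118, -98 and -11, and Cdk6 holds 1 at -220. The E-box was found in 7.15% of all windows, and 8 windows held 4 or more. The windows of Ccnd3 and Ccne1 held neither motif. These are matches of letters only, and no binding was measured.

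Among the D-type cyclins, Ccnd1 carried the largest difference of the 7 tested members. Its probe (A_66_P111562, mm9 chromosome 7, 152116202 to 152116261, minus strand) read 15.83 and 15.97 in the arrays labelled Pak1-/- and 17.31 and 17.18 in those labelled Pak1+/+. Both arrays labelled Pak1-/- lay well under both others, and the spot intensities before normalization were 53021 and 64774 against 179249 and 161267. The means were 15.90 ± 0.097 (SD, n = 2) and 17.24 ± 0.094 (SD, n = 2). The log2 difference was -1.34 (SE 0.09, 95% interval -1.58 to -1.10, limma adjusted p = 0.00069), which is 2.54-fold lower.

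Ccnd3, the D-type cyclin best known from lymphocytes, did not pass the test. Its brightest probe (A_55_P2041075, mm9 chromosome 17, 47736579 to 47736638, plus strand) read 13.93 and 14.10 against 13.97 and 14.08, so the groups overlapped. The log2 difference was -0.01 (SE 0.09, 95% interval -0.26 to 0.24, limma adjusted p = 0.93), and its sign changed in 4 of 15 alternative settings. The other Ccnd3 probe (A_51_P238448, 47736267 to 47736326) read 12.60 and 12.83 against 12.72 and 12.85, with a difference of -0.07 (SE 0.11, limma adjusted p = 0.61). On each array, Ccnd1 exceeded Ccnd3 by 1.90 and 1.87 log2 units in the arrays labelled Pak1-/- and by 3.34 and 3.1 in the others, and these gaps between 2 probes are differences of signal, not of transcript number. The gaps did not overlap and their means differed by -1.33, a difference for which no p is given.

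Ccnd2, the remaining D-type cyclin, gave too little signal to compare. Its probe (A_52_P53906, mm9 chromosome 6, 127098696 to 127098755, minus strand) read 6.30 and 6.13 against 6.43 and 6.42, with a spot intensity between 1.30 and 1.95 times its local background. Fitted without the filter on dim probes, the difference was -0.21 (SE 0.09, limma adjusted p = 0.17), and neither group's level is more than a bound.

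Of the catalytic partners of the D-type cyclins, Cdk6 passed the test and Cdk4 did not. Cdk6 (A_55_P2079630, mm9 chromosome 5, 3522106 to 3522165, plus strand) read 8.02 and 7.87 in the arrays labelled Pak1-/- and 8.58 and 8.48 in those labelled Pak1+/+. The groups did not overlap. The log2 difference was -0.58 (SE 0.09, 95% interval -0.81 to -0.35, limma adjusted p = 0.0060), or 1.5-fold lower. The probe was dim, at 239 and 217 intensity units against 366 and 335, which is 6.02 to 10.2 times the local background. The offset added to each intensity understates the change of a probe this dim.

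Cdk4 was bright and was covered by 3 probes on mm9 chromosome 10, plus strand. The brightest (A_55_P2163143, 126504279 to 126504338) read 16.58 on both arrays labelled Pak1-/- and 16.59 and 16.58 on the others. Its log2 difference was -0.0056 (SE 0.07, 95% interval -0.18 to 0.17, limma adjusted p = 0.95), while the raw spot intensities were 85104 and 95460 against 109388 and 103711. The next probe (A_55_P1998188, 126504174 to 126504233) read 15.91 and 16.00 against 16.13 and 16.10, with a difference of -0.16 (SE 0.07, limma adjusted p = 0.14). The third (A_55_P2166639, 126503162 to 126503221) read 15.49 and 15.65 against 15.88 and 15.80, with a difference of -0.27 (SE 0.09, limma adjusted p = 0.058). Groups overlapped for the brightest probe and not for the other 2, and the call of Cdk4 depended on the processing. With the processed signal scaled to the 75th percentile, the brightest probe fell by 0.28 (limma adjusted p = 0.043). With normexp and the same scaling, that probe read lower by 0.24 and did not pass (limma adjusted p = 0.051).

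**Figure D2:**
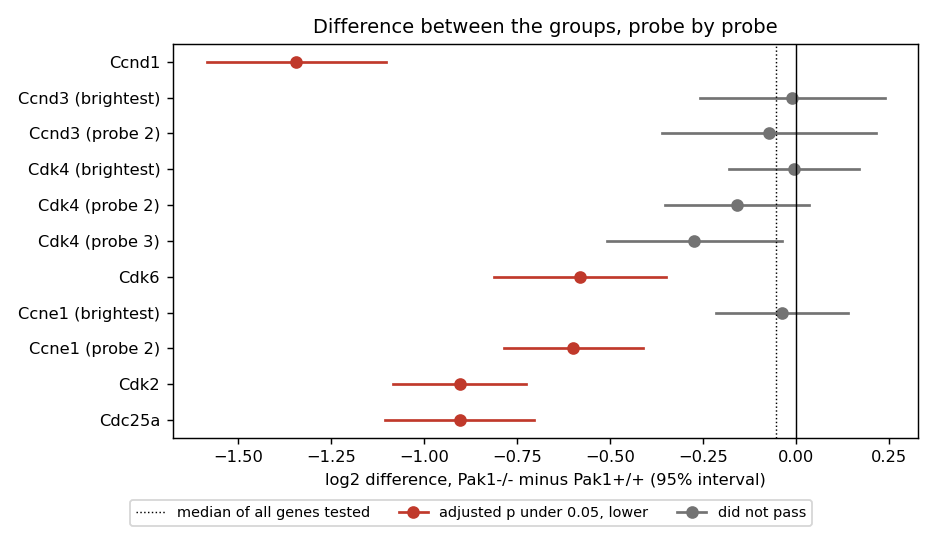
Log2 difference between the arrays labelled Pak1-/- and Pak1+/+ (x axis) for the 11 tested probes, with bars for the 95% interval of the limma fit, which is not adjusted for multiple testing, and red for probes past the adjusted threshold. The dotted line is the median of all genes tested, -0.05. Ccnd1 lies farthest to the left at -1.34, and the 2 Ccne1 probes lie apart at -0.04 and -0.60.

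For the E-type cyclins, the probes of one gene disagreed. The brightest Ccne1 probe (A_51_P408946, mm9 chromosome 7, minus strand, 38882937 to 38882960 in the file) read 13.64 and 13.66 against 13.70 and 13.67. The groups did not overlap, yet the log2 difference was only -0.04 (SE 0.07, 95% interval -0.22 to 0.14, limma adjusted p = 0.66). The dimmer probe (A_66_P125327, 38885574 to 38885633) read 8.94 and 8.96 against 9.59 and 9.51. It fell by 0.60 on the log2 scale (SE 0.07, limma adjusted p = 0.0029), and Ccne1 is therefore uncertain: its call depends on which probe stands for it. The mean over its probes gave -0.32 (limma adjusted p = 0.018). Within each array the dimmer minus the brightest probe gave -4.69 and -4.70 log2 units in the arrays labelled Pak1-/- and -4.12 and -4.16 in the others. Which transcripts each probe reads was not tested.

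Ccne2, the second E-type cyclin, was at background. Its probe (A_65_P10671, mm9 chromosome 4, 11131423 to 11131482, plus strand) read 6.03 and 5.99 against 6.0 and 6.16, at 1.17 to 1.46 times the local background. The groups overlapped, and the unfiltered difference was -0.07 (SE 0.09, limma adjusted p = 0.59).

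Cdk2, the kinase that E-type cyclins activate, was lower in both arrays labelled Pak1-/-. Its probe (A_55_P2011852, mm9 chromosome 10, 128135658 to 128135717, minus strand) read 10.94 and 10.97 against 11.88 and 11.84. The groups were separated by far more than the spread within either, with SDs of 0.021 and 0.026 (n = 2 each). The log2 difference was -0.90 (SE 0.07, 95% interval -1.08 to -0.72, limma adjusted p = 0.00090), or 1.87-fold lower. The signal of Cdk2 minus that of the brightest Cdk4 probe on the same array was -5.64 and -5.60 log2 units in the arrays labelled Pak1-/- and -4.71 and -4.74 in the others. These gaps did not overlap either, and no p is given for them.

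Cdc25a, the phosphatase that removes inhibitory phosphate from Cdk2, was lower as well. Its probe (A_65_P05252, mm9 chromosome 9, 109796331 to 109796390, plus strand) read 11.58 and 11.67 in the arrays labelled Pak1-/- and 12.49 and 12.57 in those labelled Pak1+/+. The groups did not overlap. The log2 difference was -0.90 (SE 0.08, 95% interval -1.10 to -0.70, limma adjusted p = 0.0012), or 1.87-fold lower.

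**Figure D3:**
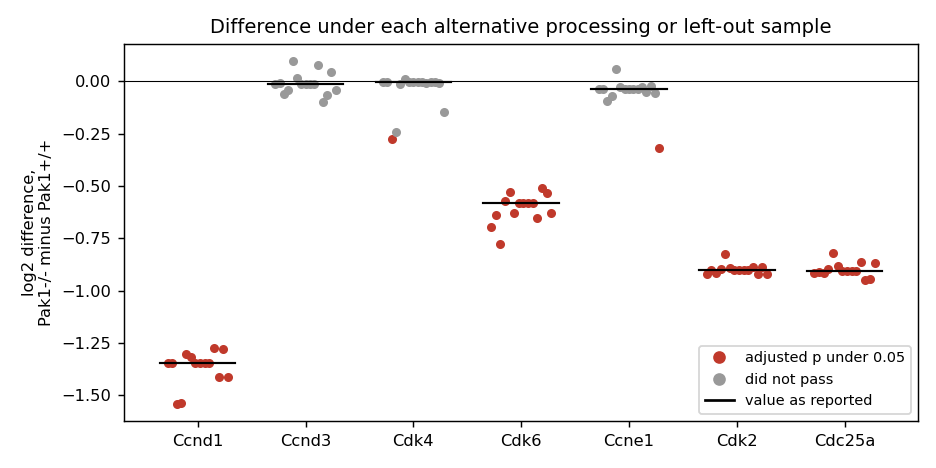
Log2 difference (y axis) of the 7 tested genes under each alternative processing or left-out sample, with a black line at the reported value and red points where the limma adjusted p is under 0.05. Ccnd1, Cdk6, Cdk2 and Cdc25a stay below 0 and past the threshold in every setting drawn, while Ccnd3, Cdk4 and Ccne1 lie mostly near 0. Cdk4 and Ccne1 have 1 passing point each and Ccnd3 has 0.

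The 4 lower genes held their direction and their call in each of 14 alternative settings, with Ccnd1 between -1.54 and -1.28, Cdk6 between -0.78 and -0.51, Cdk2 between -0.92 and -0.83 and Cdc25a between -0.95 and -0.82. Genes whose pattern over the 4 arrays was most like that of Ccnd1, by root mean square distance of mean-centred log2 values among 19148 genes, were Eepd1 (0.018), Krt10 (0.026) and Cenpu (0.027). These 3 read -1.36, -1.38 and -1.30 in the same comparison, and the likeness is over 4 arrays only.

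The genes that act around the G1 kinases were described by lists that were chosen with earlier results known, and each count stands beside the 28.2% of all genes tested that fell and the 22.8% that rose. Of 7 CDK inhibitors, which bind and block cyclin-CDK complexes, 6 were tested, 4 fell and 0 rose, with a median log2 difference of -0.47. The brightest probe of Cdkn2b (p15) read 5.72 and 5.76 against 13.11 and 13.28 and was not well above background in the arrays labelled Pak1-/-. By this probe it was at least 95.5-fold lower there. The brightest probe of Cdkn2a, the INK4A and ARF gene, read 6.08 and 6.21 against 11.20 and 11.44, likewise not well above background. By this probe it was at least 26.0-fold lower, and neither bound covers the other probes of these genes. The p15 and INK4A proteins inhibit Cdk4 and Cdk6, and ARF acts upstream of p53. Since their level in the arrays labelled Pak1-/- is only a bound, the list's median was read with them at that bound and was the same. The fitted log2 difference, which is no bound, ranged over the settings from -11.38 to -6.27 for Cdkn2b and from -8.45 to -3.57 for Cdkn2a, with the smallest size in both from the mean over probes and the largest without an offset for Cdkn2b and with the processed signal for Cdkn2a. Cdkn2d fell by 0.52. With probes required above background on all 4 arrays, which drops Cdkn2a and Cdkn2b, 2 fell, and 1 inhibitor rose with cyclic loess scaling and without Pak1-/- replicate 1.

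Pocket proteins and E2F factors, the targets of G1 kinases, had 13 genes tested, of which 6 fell, 2 rose and 5 did not pass, with a median of -0.13. Rb1, the retinoblastoma gene, rose by 1.45 and E2f2 rose by 0.75, while the repressor E2f8 fell by 1.55, Rbl1 (p107) by 1.11 and the E2F partner Tfdp1 by 0.80. With cyclic loess scaling, or the mean over probes, 4 rose.

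Of the 7 S, G2 and M phase cyclins and CDK1, 5 were tested and all 5 fell, with a median of -0.52. Cdk1 fell by 1.08 and Ccnf, a cyclin of the SCF ubiquitin ligase, by 0.57, while Ccna1 and Ccnb3 stayed at background. Only 2 fell without Pak1+/+ replicate 1, and 3 without Pak1-/- replicate 1 or without Pak1+/+ replicate 2. Of 7 genes that add or remove CDK phosphates, 6 fell and 1 rose, with a median of -0.69. The phosphatases Cdc25c (-1.25) and Cdc25b (-1.23) fell beside Cdc25a, as did Pkmyt1 (-0.93), an inhibitory kinase of CDK1, whereas Cdk7, the catalytic subunit of the CDK-activating kinase, rose by 0.37. The other subunits of that kinase, named after their values were seen, fell: Ccnh by 0.69 (limma adjusted p = 0.0046) and Mnat1 by 0.69 (0.0019). The call of Cdk7 was lost in 3 of 15 alternative settings: without Pak1+/+ replicate 1 (limma adjusted p = 0.054), without Pak1+/+ replicate 2 (0.065) and with the mean over probes, where its difference was 0.099 (0.29).

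Of 17 replication licensing and S phase enzymes, which lie downstream of the G1 kinases, all 17 fell, with a median of -1.14. Rrm2, a subunit of ribonucleotide reductase, fell by 1.84 and the primase subunit Prim1 by 1.33. The share of all genes that fell was 28.2%, as above. Of 12 cycling cell markers, 11 were tested, 7 fell and 0 rose, with a median of -0.59. Birc5 fell by 1.07 and Mki67 by 0.96, and Aurkb stayed at background. Cdc20 went the other way, at 15.36 and 15.77 against 15.10 and 15.20, and did not pass (log2 difference 0.42, limma adjusted p = 0.080). Plk1, Tpx2 and Nusap1 read lower and did not pass either. The 7 became 4 without Pak1+/+ replicate 1, and 1 gene rose with cyclic loess scaling, with a replicate block and without Pak1-/- replicate 1. The summed linear level of the cycling markers was 171940 and 216693 against 290341 and 291715. This sum was lower in the arrays labelled Pak1-/-, as were Ccnd1, Cdk2, Cdk6 and Cdc25a. Its part in their differences was not tested.

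**Figure D4:**
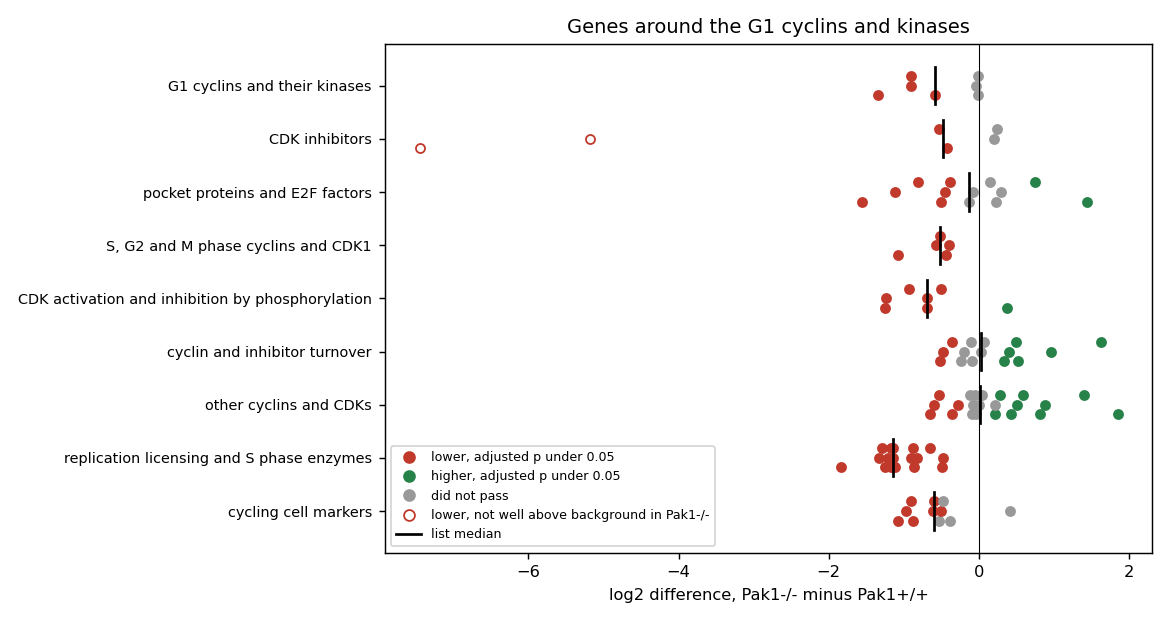
Log2 difference between the arrays labelled Pak1-/- and Pak1+/+ (x axis) for each tested gene of the G1 members and 8 related lists (y axis), red for lower, green for higher, grey for genes that did not pass, with a black bar at each list median. Open red circles are Cdkn2a and Cdkn2b, whose level in the arrays labelled Pak1-/- is a bound. Every point of the replication list lies below 0, while the turnover list and the other cyclins and CDKs spread to both sides.

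Of 15 genes for cyclin and inhibitor turnover, 3 fell, 6 rose and 6 did not pass, with a median of 0.03. Skp2, which targets p27 for destruction, fell by 0.52, Cul1, the scaffold of the same ligase, by 0.47, and Fbxo31 by 0.35. The chaperone Cryab rose by 1.63, the kinase gene Gsk3b by 0.97 and Usp2 by 0.53. Of 22 other cyclins and CDKs, which act largely in transcription and outside the cell cycle, 5 fell, 9 rose and 8 did not pass, with a median of 0.02. In both lists the share that fell was below the 28.2% of all genes and the share that rose above the 22.8%, with no test of either. Ccnc fell by 0.65, while Cdk14 rose by 1.85 and Ccng2 by 1.40. The 5 became 3 with cyclic loess and without either Pak1+/+ replicate, and the 9 became 5 without Pak1-/- replicate 1 or Pak1+/+ replicate 1.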

How the data were processed

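Total RNA of 4 mouse samples was measured on 1-colour (Cy3) arrays. The deposited files hold linear spot intensity made with Feature Extraction 9.5.3.1 per the file headers (9.5 in the submitters' processing notes). A second deposited table holds the authors' log2 values, normexp background corrected and quantile normalized by their methods, which was used as an alternative and was not the source of the values given. From the scanner files, normexp (offset 50) was applied to all spots with limma 3.58.1 (R 4.3.3), control spots were left out, log2 values were quantile normalized, outlier spots were set aside and spots averaged per probe. A probe was kept if 2 or more of the 4 arrays had it well above background, 27229 in all. The genotypes were compared by limma (lmFit, then eBayes), two-sided, and p-values were adjusted by the Benjamini-Hochberg method over all kept probes, with a threshold of 0.05. The offset and filter were set here, since the methods state neither. The fit had 2 residual degrees of freedom and a prior of 2.62. The number of arrays limits the precision.

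A gene not well above background in 1 group was compared through a bound: the bright group's mean against, for the dim group, the mean over arrays of its own value or of the lowest signal that any well-above-background probe had there, whichever was higher. Members and lists were chosen with earlier results of these data known. Every probe of a member is given. Of each cell cycle list, the genes past the threshold with the largest changes are named, at most 3 in each direction. In some lists fewer are named although more passed. Ccnh, Mnat1, some genes at background and the cycling markers that did not pass are named besides. Also named are the 3 genes most like the member that fell most. Cell type markers are named for their level or change, after their values were seen. Names follow the files for members and, for lists, RefSeq accessions (26055 of 32334 matched). Probe coordinates are those of the files (mm9), and promoters are from RefSeq (GRCm38.p6). Exon and UTR annotation of the probes was not used here. Comparisons of 2 probes within an array are given as values with no p. A first limma fit of these differences was set aside after its p-values were seen, because subtracting 1 shared probe from all others ties their residuals and makes the p-values too small. The script of the limma fit between genotypes was tested on simulated data with known changes, and no value of the text rests on that.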

Additional observations from a re-analysis of the deposited data

How the results depend on the processing

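The log2 differences of the members, of Pak1, Erbb2 and of the genes named from the cell cycle lists, and the counts of these lists, were recomputed with other background corrections, scalings, filters, priors and thresholds, with the authors' deposited log2 values, and without each array in turn. The cell type markers and their counts, list medians, gaps between probes and likeness ranking were not recomputed. Nor, of the named list genes, were the differences of Fbxo31, Usp2, Cdc20, Plk1, Tpx2 and Nusap1. The 4 lower members kept their direction in all settings and their call in all but an added 2-fold requirement, where the count of 4 became 1 (Ccnd1). The count was 5 with the processed signal at the 75th percentile and with the mean over probes. No member was higher in any setting. Signs turned only near 0. Ccnd3 became 0.096 with cyclic loess, 0.018 with the deposited values, and -0.098 to 0.076 when 1 array was left out, with 0.076 without Pak1-/- replicate 1 and 0.043 without Pak1+/+ replicate 2. The dimmer Ccnd3 probe became 0.0066 with cyclic loess, and -0.19 to 0.042 when 1 array was left out, with 0.042 without Pak1-/- replicate 1. Cdk4 became 0.0096 with the deposited values and Ccne1 0.057 with cyclic loess. The cause was not tested. The dimmest Cdk4 probe passed in 5 of 14 settings (lowest limma adjusted p 0.025) and the middle one in 2 of 14, both 75th percentile scalings (0.038 and 0.039). Across all probes called, 44.9% were higher, against 52.4% with cyclic loess. With a replicate block the member count was again 4 lower and 13211 probes passed, against 14132. Replicate differences correlated at -0.028 across probes, so the numbers were not read as pairs. A slide block was not run, since all arrays lay on 1 slide. Ccnd2 and Ccne2 could not be compared at their signal over background. In the lists, the added 2-fold requirement cut the 6 falling genes that add or remove CDK phosphates to 2. Of the falling cycling markers it left only Birc5, and of the falling turnover genes and other cyclins and CDKs none. With a limma adjusted p under 0.01, only Cdkn2a and Cdkn2b of the CDK inhibitors still fell, and of the cycling markers Mki67, Bub1, Birc5 and Kif11.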
